A study of Mus musculus with 11 samples.

Results

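Dorsal skin of Dlx3 conditional knockout mice was compared with skin of wild-type (WT) mice by RNA sequencing, across all genes that were expressed above a minimum. The comparison used 6 of the 11 libraries of the study, 3 of Dlx3 knockout (KO) skin and 3 of WT skin, and 14233 of the 24974 genes in the table. Genes entered if their values averaged 0.5 RPKM or more across the 11 libraries, where RPKM are reads scaled to the length of the gene and to the size of the library. The other 5 libraries were Dlx3 KO tumors, which entered the fit to estimate the spread and are not described here.

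Mice of both genotypes had been treated on the back with 7,12-dimethylbenz[a]anthracene (DMBA), a carcinogen that the body turns into a DNA-damaging form. The treatment was 3 doses of 100 µg DMBA in 200 µl, spaced by 1 week, and tissue was taken 31 weeks after the start. Dlx3 KO skin was unaffected whole skin, so the libraries hold epidermis, hair follicles, dermis, fat and muscle together. WT skin had received the same DMBA, and no untreated skin was analysed here. The design text speaks of 3 treated mice of each genotype, but the labels do not tie a library to an animal, so a p-value here reflects only how far these samples spread, which may be technical in part. The Cre driver, the deleted exon, the strain and the age at treatment are not given in the sources used here. In such bulk samples, fewer cells of a type and less RNA per cell cannot be told apart.

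Dlx3 is a homeobox transcription factor, a protein that binds DNA and sets which genes a cell uses. In skin it is made in the upper, differentiating layers of the epidermis and in the matrix, the dividing base of the hair follicle from which the hair grows. The matrix gives rise to the hair cortex and cuticle, built from hair keratins and keratin-associated proteins, and to the inner root sheath, which moulds the growing hair. The epidermis ends in dead, flattened cells whose cornified envelope of crosslinked proteins, embedded in lipid, forms the barrier of the skin.

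The library labelled WT skin 2 stood apart from the other WT skins. Across all tested genes on the log2(RPKM + 0.5) scale its correlation was 0.894 with WT skin 1 and 0.887 with WT skin 3, while those 2 correlated at 0.952 with each other. It correlated at 0.928, 0.949 and 0.947 with Dlx3 KO skin 1, 2 and 3, which correlated at 0.965 to 0.980 among themselves. Xist, the RNA that silences an X chromosome in female cells, measured 12.5 RPKM in the library labelled WT skin 2, 10.1 to 14.6 RPKM in the Dlx3 KO skins, and 0.466 and 0.149 RPKM in WT skin 1 and 3. Ddx3y, on the Y chromosome, measured 15.7 and 11.1 RPKM in WT skin 1 and 3 and no more than 0.492 RPKM in the other skins. No sex is given in the labels. The library labelled WT skin 2 was also the shallowest of the skins, with 29265111 alignments against 39469415 to 75707445. Dlx3 KO skin 1, the deepest of the skins, was the only skin of the second sequencing run. A comparison without the library labelled WT skin 2 sets low-Xist WT skins against high-Xist Dlx3 KO skins, so sex and genotype cannot be told apart in it. Where that library is kept, it is the lone WT skin high in Xist, so the groups remain uneven in Xist and Ddx3y. Results are therefore given with that library and, where they differ, without it.

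The skin markers were present in every library. Krt14 and Krt5, keratins of the basal epidermis, were at 746 to 3340 and 774 to 2792 RPKM, and the dermal collagen Col1a1 was at 140 to 690 RPKM. Genes of other tissues in the sample were present too, with the muscle enzyme Ckm at 673 to 2422 RPKM and the fat hormone Adipoq at 33.1 to 91.9 RPKM.

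Dlx3 itself was at 49.9, 7.35 and 89.9 RPKM in WT skin 1, the library labelled WT skin 2 and WT skin 3, and at 4.08, 8.88 and 6.72 RPKM in Dlx3 KO skin 1, 2 and 3. At 7.35 RPKM, the library labelled WT skin 2 sat between Dlx3 KO skin 3 and Dlx3 KO skin 2, so the groups overlapped. The log2 fold change was -2.28 ± 0.83 (SE, limma adjusted p = 0.440), and without that library it was -3.32 (adjusted p = 0.0307). A value over the whole gene can include reads from exons that the deletion leaves in place. Dlx3 is made in the hair matrix too, and the library labelled WT skin 2 was low in keratin-associated proteins. Their median was 2.43 RPKM there, against 99.2 and 159 RPKM in WT skin 1 and 3. Whether the low Dlx3 of that library goes with its genotype or with its hair content was not tested. Of the other Dlx genes, Dlx5, a relative of Dlx3 best known from bone and craniofacial development, was at 1.51, 0.779 and 3.94 RPKM in the WT skins and at 9.71, 5.40 and 8.24 RPKM in Dlx3 KO skin. Every Dlx3 KO skin lay above every WT skin for Dlx5 (log2 fold change 1.84 ± 0.52, SE, adjusted p = 0.280). Dlx1, Dlx2 and Dlx4 were at 0.424, 0.440 and 0.208 RPKM in Dlx3 KO skin 1, but at 3.35 to 8.85 RPKM in Dlx3 KO skin 2 and 3 and at 3.02 to 11.5 RPKM in the WT skins.

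Hair genes were lower and epidermal barrier genes were higher in Dlx3 KO skin, and no single gene passed the test across all genes. Of the 14233 genes, 0 (0.0%) had a limma adjusted p under 0.05, and 1229 (8.63%) had an unadjusted p under 0.05, 743 higher (5.22%) and 486 lower (3.41%). By direction alone 56.7% of the tested genes were higher and 43.3% lower, and 4.15% had a log2 fold change above 1 and 2.8% one below -1. This balance turned under some alternatives. Among genes with an unadjusted limma p under 0.05, 375 were higher and 659 lower without WT skin 1 (median of all tested genes -0.04). Leaving out the libraries highest in the ribosomal RNA precursor Rn45s gave 675 higher and 832 lower. Those libraries are WT skin 1 and a tumor, so among the skins the same library is removed. Without Dlx3 KO skin 2, 434 were higher and 440 lower. When every gene above 0 was tested, 876 were higher and 1013 lower. Rn45s was at 10021 RPKM in WT skin 1 and at 612 to 2778 RPKM in the other skins, and its part in the balance was not tested. Without the library labelled WT skin 2, 229 genes (1.61%) passed, 63 (0.443%) risen and 166 (1.17%) fallen. With the sequencing run as a further term these were 206 (1.45%), 50 risen (0.351%) and 156 fallen (1.1%). Of these 229, 155 had Dlx3 KO and WT skins that did not overlap when that library was put back, 44 of the risen and 111 of the fallen. Groups without overlap, in which all 3 Dlx3 KO skins lie on one side of all 3 WT skins, were found for 1609 of all tested genes in the higher direction (11.3%) and for 726 in the lower direction (5.1%). These shares are the background for the counts without overlap in the lists below. The median log2 fold change of all tested genes was 0.06. The authors' deposited table, from an analysis of variance, held 7 genes with a q-value under 0.05 in this comparison, and none of them passed the minimum of 0.5 RPKM.

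**Figure D1:**
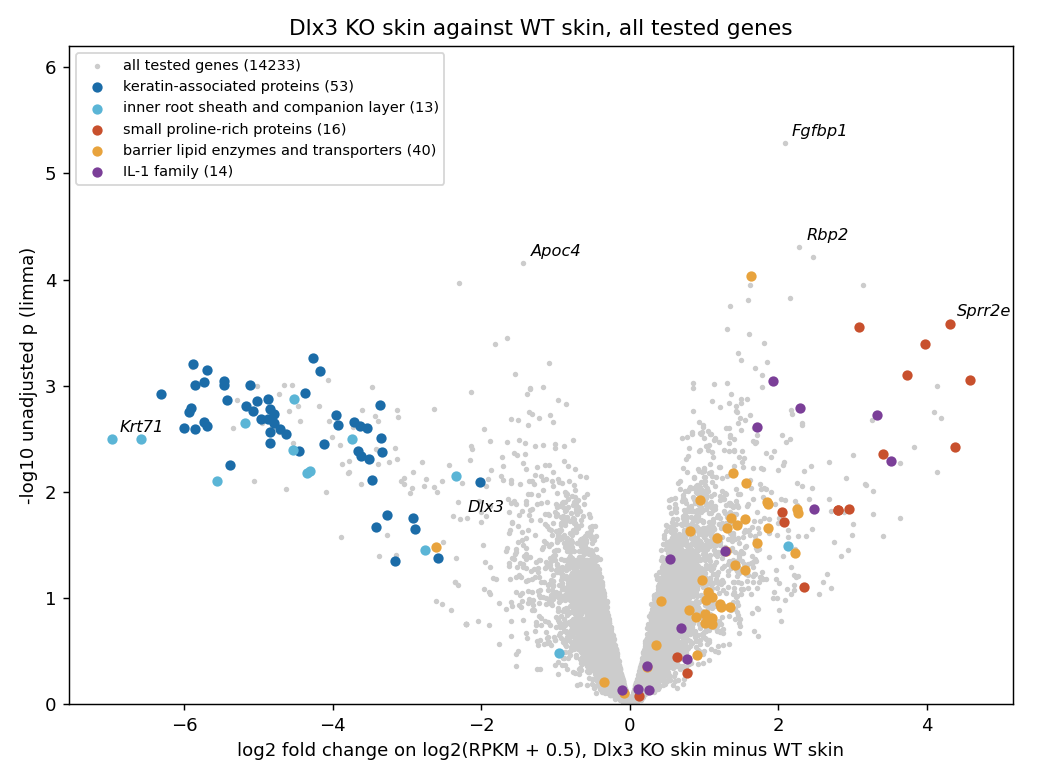
Each point is a gene, with the log2 fold change (Dlx3 KO skin minus WT skin, on log2(RPKM + 0.5)) on the x axis and -log10 of the unadjusted limma p on the y axis; coloured points are members of 5 gene lists and grey points the other genes. Keratin-associated proteins (53) and inner root sheath genes (13) lie mostly on the left, with Krt71 at -6.97, and small proline-rich proteins (16) and barrier lipid genes (40) mostly on the right, with Sprr2e at 4.31, although Fgfbp1 has the smallest p.

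Keratin-associated proteins, which crosslink the keratin filaments of the hair cortex and cuticle, were lower in Dlx3 KO skin in all 53 tested of the 54 in the table, and 43 of the 53 had groups that did not overlap. Their median log2 fold change was -4.79, and the median RPKM of the family was 99.2, 2.43 and 159 in the libraries labelled WT skin 1, 2 and 3 and 0.119, 1.01 and 0.365 in Dlx3 KO skin 1, 2 and 3. Members of the family are near copies of each other that lie in clusters in the genome, so the values of single members are uncertain where copies share reads. Without the library labelled WT skin 2, 51 of the 53 fell and 0 rose (limma adjusted p under 0.05), with a median log2 fold change of -6.49. Over all tested genes 1.17% fell and 0.443% rose in that fit. The library labelled WT skin 2 lay far below the other WT skins for this family and nearer to the Dlx3 KO skins, which it exceeded by a median of 1.35 on the log2 scale (Dlx3 KO skins minus that library, -1.35).

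The promoters of hair genes that carry this difference are shown to give the sequence on which Dlx-type and other homeodomain proteins could be looked for. The windows are the 220 bases before the start of the gene (RefSeq, GRCm38.p6), written 5′ to 3′ on the strand of the gene. They are chr16:88962874-88963093 for Krtap16-3 and chr16:89420112-89420331 for Krtap6-2, both on the minus strand, and chr11:99322952-99323171 and chr15:101743098-101743317 on the minus strand for Krt25 and Krt71, keratins of the inner root sheath. Capitals mark TATAAA, the TATA box sequence, and TAATTG, a core bound by many homeodomain proteins, on either strand.
Krtap16-3: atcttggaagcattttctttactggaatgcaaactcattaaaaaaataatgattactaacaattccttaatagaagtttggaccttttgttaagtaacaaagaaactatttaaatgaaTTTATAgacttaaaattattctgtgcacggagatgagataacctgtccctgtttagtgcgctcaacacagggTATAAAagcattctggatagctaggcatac
Krtap6-2: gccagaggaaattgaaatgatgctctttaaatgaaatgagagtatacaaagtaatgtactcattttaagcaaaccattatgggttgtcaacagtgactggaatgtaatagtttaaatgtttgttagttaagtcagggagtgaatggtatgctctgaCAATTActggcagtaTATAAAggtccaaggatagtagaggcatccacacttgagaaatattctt
Krt25: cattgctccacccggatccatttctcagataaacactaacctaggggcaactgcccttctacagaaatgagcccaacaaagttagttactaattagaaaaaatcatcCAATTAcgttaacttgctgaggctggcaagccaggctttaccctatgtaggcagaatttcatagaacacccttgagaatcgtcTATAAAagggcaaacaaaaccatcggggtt
Krt71: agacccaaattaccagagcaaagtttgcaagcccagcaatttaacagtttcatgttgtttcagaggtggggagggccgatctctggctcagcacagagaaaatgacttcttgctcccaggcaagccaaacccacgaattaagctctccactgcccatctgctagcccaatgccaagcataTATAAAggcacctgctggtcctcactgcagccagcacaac
The core TAATTG was present in Krtap6-2, where it begins 64 bases before the start, and in Krt25, 113 bases before it, each on the opposite strand as CAATTA. These windows of Krtap16-3 and Krt71 held no TAATTG, and all 4 windows held TATAAA. Among members with a promoter in the table, TAATTG was found in 13 of 48 keratin-associated proteins (27.1%), 5 of 12 inner root sheath and companion layer genes (41.7%) and 0 of 9 cortex and cuticle keratins, against 3.82% of the promoters of all 11015 tested genes that had one. In lists that were mostly higher in Dlx3 KO skin, TAATTG was in 5 of 34 cornified envelope genes (14.7%) and 4 of 33 barrier lipid genes (12.1%). It was in 1 of 26 desquamation proteases and inhibitors (3.85%) and 0 of 14 small proline-rich proteins. TATAAA was found in 38 of the 48 keratin-associated proteins (79.2%) and in 6.77% of all. Bases A and T made up 58.8% of the windows of keratin-associated proteins, 53.5% of those of inner root sheath genes and 39.9% of all, and this was not adjusted for. A match describes the letters and is not a binding site.

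Krtap16-3 was at 149, 4.72 and 250 RPKM in WT skin 1, the library labelled WT skin 2 and WT skin 3 and at 0.114, 1.01 and 0.526 RPKM in Dlx3 KO skin 1, 2 and 3 (log2 fold change -5.88 ± 1.26, SE, limma adjusted p = 0.256). The groups did not overlap, and the highest Dlx3 KO skin was 1.79 below the lowest WT library on the log2 scale. Krtap6-2 had the same order, with 124, 3.05 and 171 RPKM in the WT skins and 0.144, 0.600 and 0.276 RPKM in Dlx3 KO skin (log2 fold change -5.69). Krtap19-3 (-6.32), Krtap19-5 (-6.01) and Krtap14 (-5.93) had the lowest log2 fold changes of the family. Among the Dlx3 KO skins, replicate 1 was lowest and replicate 2 highest in the median of this family, of the hair keratins and of the inner root sheath.

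Keratins of the hair cortex and cuticle were lower in Dlx3 KO skin in all 16 members, of which 10 had groups that did not overlap. Their median log2 fold change was -3.13. Without the library labelled WT skin 2, 10 of the 16 passed as lower (limma adjusted p under 0.05), and 14 had every Dlx3 KO skin below WT skin 1 and 3. Over all tested genes these shares were 1.17% and 13.2%. Krt34, a keratin of the cortex, was at 275, 34.6 and 353 RPKM in the WT skins and at 2.84, 24.7 and 8.28 RPKM in Dlx3 KO skin (log2 fold change -4.06 ± 0.91, SE, adjusted p = 0.256). The groups did not overlap, although the library labelled WT skin 2 (34.6 RPKM) and Dlx3 KO skin 2 (24.7 RPKM) were close. Krt83 had a log2 fold change of -3.47, Krt32, a cuticle keratin, -3.61 and Krt39 -2.13, again without overlap. Krt35 and Krt85, chosen after their values were seen, overlapped. Krt35 was at 170, 122 and 393 RPKM in the WT skins and at 5.17, 128 and 92.6 RPKM in Dlx3 KO skin, and Krt85 at 310, 34.6 and 497 RPKM against 11.2, 135 and 65.9 RPKM. Their log2 fold changes were -2.31 and -1.90, and Dlx3 KO skin 2 lay above the library labelled WT skin 2 for both.

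The inner root sheath keratins Krt71 and Krt25 had the lowest log2 fold changes of all tested genes. In the list of the inner root sheath and the companion layer next to it, 12 of 13 members were lower and 8 of them did not overlap (median log2 fold change -4.35). Krt71 was at 1412, 23.3 and 2735 RPKM in the WT skins and at 1.22, 5.86 and 3.72 RPKM in Dlx3 KO skin (log2 fold change -6.97 ± 1.87, SE, adjusted p = 0.267). Krt25, its partner keratin, was at 1044, 16.6 and 1537 RPKM in the WT skins and at 0.854, 6.22 and 2.95 RPKM in Dlx3 KO skin. For both keratins WT skin 1 and 3 were far above the rest, and the library labelled WT skin 2 was closer to the Dlx3 KO skins than to them, yet above each of these. Krt26 (-4.52), the trichohyalin-like gene Tchhl1 (-5.18) and Padi3 (-3.75), an enzyme that converts arginine to citrulline in sheath proteins, were lower without overlap as well. Tchh, trichohyalin, was at 44.8 RPKM in the library labelled WT skin 2, within the 7.02 to 60.6 RPKM of the Dlx3 KO skins, whereas WT skin 1 and 3 had 930 and 1105 RPKM. The member that was higher was Krt79, a keratin of the follicle opening and sebaceous duct, at 147, 695 and 144 RPKM in the WT skins and at 1636, 972 and 793 RPKM in Dlx3 KO skin.

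Hair shaft enzymes and junction proteins had a median log2 fold change of -2.01, and of -0.30 against the library labelled WT skin 2 alone. They were lower in 11 of 12 tested of 13 members, with 2 not overlapping. The 2 were Padi1, another citrulline-forming enzyme, with 15.3, 3.35 and 14.98 RPKM in the WT skins and 1.47 to 1.98 RPKM in Dlx3 KO skin, and Dsg4, a desmosomal cadherin of the hair. Crnn and Cryba4 were low in the library labelled WT skin 2 (1.56 and 1.57 RPKM) as in the Dlx3 KO skins (0.349 to 1.58 and 0.261 to 2.03 RPKM), against 44.2 and 97.6 RPKM and 68.4 and 51.0 RPKM in WT skin 1 and 3. Without the library labelled WT skin 2, 78 of the 166 fallen genes were in one of the hair lists, and 68 had a keratin or keratin-associated protein symbol. The 166 are 1.17% of all tested genes, and the share of all tested genes in a hair list was not worked out.

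**Figure D2:**
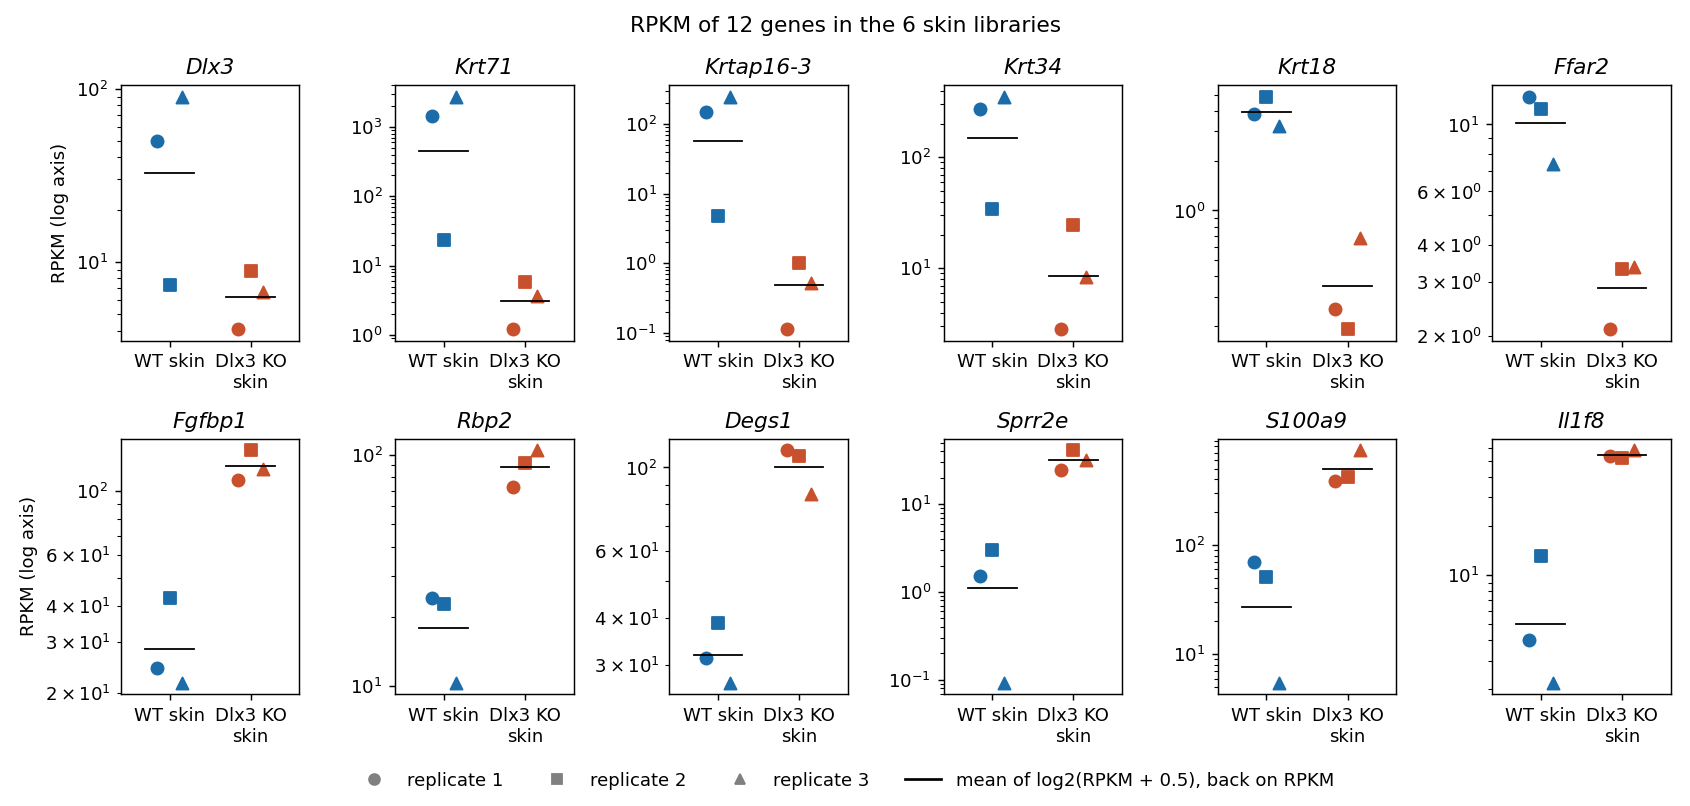
RPKM (log axis) of 12 genes in the 6 skin libraries, WT skin in blue and Dlx3 KO skin in red, with circles, squares and triangles for replicates 1, 2 and 3 and a line at the group mean of log2(RPKM + 0.5), put back on the RPKM scale. The WT square is the library labelled WT skin 2, which lies with the Dlx3 KO skins for Dlx3 (7.35 RPKM) and between the groups for Krt71 (23.3 RPKM), but with the other WT skins for Krt18 (4.86 RPKM), Rbp2 (22.7 RPKM) and S100a9 (51.0 RPKM).

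Transcription factors of the hair matrix had a median closer to 0 than the structural genes that are made above it. Of 20 members 12 were lower and 8 higher, and 2 in each direction did not overlap (median log2 fold change -0.26), Msx1 and Foxe1 lower and Runx1 and Prdm1 higher. Msx2, a homeobox factor needed for hair shaft differentiation, was at 31.3, 6.41 and 45.8 RPKM in the WT skins and at 2.40, 8.45 and 7.35 RPKM in Dlx3 KO skin (log2 fold change -1.88 ± 0.65, SE, adjusted p = 0.407). It overlapped through the library labelled WT skin 2 and fell without it (adjusted p = 0.0210). Its relative Msx1 did not overlap, with 9.01, 5.50 and 22.2 RPKM against 1.35, 4.62 and 4.51 RPKM. Hoxc13, a direct regulator of hair keratin genes, was at 31.2, 10.5 and 68.7 RPKM in the WT skins and at 6.96, 17.7 and 20.8 RPKM in Dlx3 KO skin, and Lef1, a nuclear factor of Wnt signalling, at 9.47, 3.63 and 19.4 against 0.819, 4.85 and 5.11 RPKM. For both, the library labelled WT skin 2 lay inside the range of the Dlx3 KO skins. Hoxc13, Lef1 and the genes named next, Gata3 and Shh, lie outside the rule for named genes and were chosen after their values were seen. Gata3, a factor of the inner root sheath, did not follow the sheath keratins, with 70.8, 23.8 and 69.3 RPKM in the WT skins and 64.0, 52.1 and 48.3 RPKM in Dlx3 KO skin. Prdm1 and Runx1, which also act in the follicle, were higher in every Dlx3 KO skin (log2 fold changes 0.80 and 0.73).

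Signals of the follicle were lower in 24 of 31 tested of 37 members (median log2 fold change -0.40). Of the 31, 2 were lower without overlap, against 5.1% of all tested genes. Fgf5, the growth factor that ends the growth phase of the hair cycle, was at 5.94, 0.457 and 3.92 RPKM in the WT skins and at 0.0494, 0.614 and 0.404 RPKM in Dlx3 KO skin. Its groups overlapped through the library labelled WT skin 2, and it fell without that library (adjusted p = 0.000933). Wnt10b, a Wnt ligand of the matrix, had a log2 fold change of -1.24, Wnt5a -1.04 and Smad6, an inhibitor of Bmp signalling, -1.05. Shh, a signal made by the matrix, was at 0.153 RPKM in Dlx3 KO skin 1 but at 4.24 and 6.69 RPKM in Dlx3 KO skin 2 and 3, against 4.84, 5.47 and 13.3 RPKM in WT skin. Pigment cell genes were lower in 14 of 16 tested of 18 members, but 0 of these 14 had groups without overlap (median log2 fold change -0.67). They include the melanocyte channel Trpm1 (-1.32), the transporter Slc45a2 (-1.21) and the melanocortin receptor Mc1r (-0.90). The exception without overlap was Rab38, a trafficking protein also made outside pigment cells, at 16.1, 25.9 and 15.02 RPKM in the WT skins and at 49.6, 48.7 and 41.4 RPKM in Dlx3 KO skin (log2 fold change 1.31 ± 0.26, SE, adjusted p = 0.256). Stem cell and resting follicle genes were split, with 7 of 16 higher and 9 lower (median -0.05). Among these, the keratin Krt24 was lower (-1.33) and the placenta-type surface protein Plet1 higher (1.03) without overlap.

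**Figure D3:**
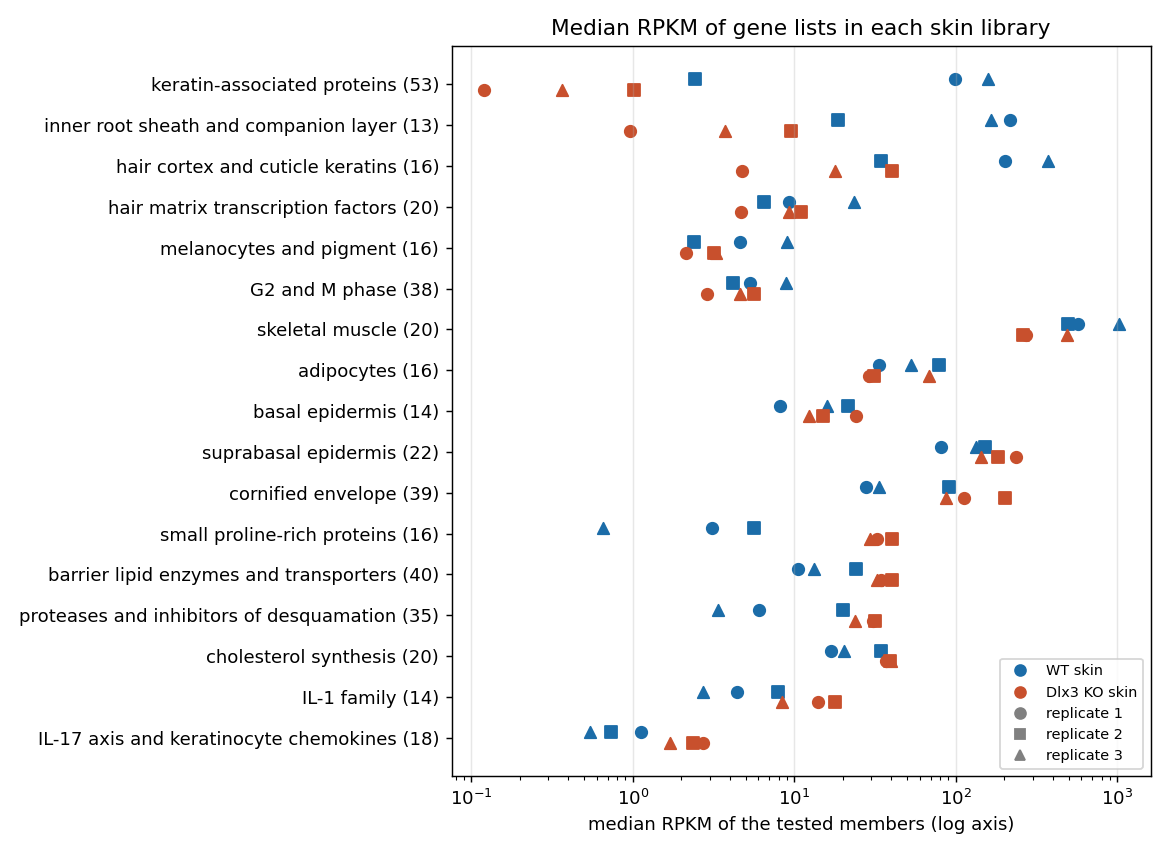
Median RPKM (log axis) of the tested members of 17 gene lists in each skin library, WT skin in blue and Dlx3 KO skin in red, with circles, squares and triangles for replicates 1, 2 and 3; the number of tested members is in brackets. For keratin-associated proteins the WT skins are at 99.2, 2.43 and 159 RPKM and the Dlx3 KO skins at 0.119 to 1.01 RPKM, and for small proline-rich proteins the WT skins are at 0.659 to 5.67 RPKM and the Dlx3 KO skins at 29.3 to 40.0 RPKM.

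In the basal layer of the epidermis, which holds the dividing cells, most genes overlapped. Of 14 basal genes 11 were higher and 3 lower, and 1 did not overlap (median log2 fold change 0.24). Krt14 was at 1098, 3255 and 746 RPKM in the WT skins and at 3340, 2682 and 2405 RPKM in Dlx3 KO skin, so the library labelled WT skin 2 was inside the range of the Dlx3 KO skins and the other WT skins below it. The member without overlap was Ly6d, a surface protein of stratified epithelium, at 411, 453 and 312 RPKM in the WT skins and at 1498, 1140 and 945 RPKM in Dlx3 KO skin, and it rose without the library labelled WT skin 2 (limma adjusted p = 0.0214).

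Suprabasal genes had a median log2 fold change of 1.18, and of 0.44 against the library labelled WT skin 2 alone. They were higher in 20 of 22 members and 13 did not overlap. Of these 13, 8 encode parts of desmosomes, the junctions between keratinocytes (Dsg1a, Dsg1b, Dsc1, Dsp, Jup, Pkp1, Pkp3 and Perp). The cadherin Dsg1b was, at 9.41, 10.01 and 9.51 RPKM in the WT skins and at 24.8, 32.3 and 34.6 RPKM in Dlx3 KO skin, and plakophilin Pkp1 had a log2 fold change of 0.96. Skint3 (1.55), a keratinocyte membrane protein, and the protease inhibitor Serpinb2 (1.29) were the members with the smallest p. The main keratins of these layers, chosen after their values were seen, had another order. Krt1 was at 579, 8501 and 388 RPKM in the WT skins and at 6436, 6735 and 8771 RPKM in Dlx3 KO skin, and Krt10 was at 1784, 15521 and 1432 RPKM in the WT skins and at 10241 to 11739 RPKM in Dlx3 KO skin. The library labelled WT skin 2 was level with the Dlx3 KO skins for Krt1 and above them for Krt10, while WT skin 1 and 3 were lower than both. Since RPKM are shares of a library, the sums of the hair lists are given beside this. In WT skin 1 the keratin-associated proteins summed to 9536 RPKM, the cortex and cuticle keratins to 3515 RPKM and the inner root sheath list to 6168 RPKM, of 421472 RPKM over all tested genes.

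Cornified envelope genes were higher in all 39 tested of 40 members, but 10 of the 39 did not overlap (median log2 fold change 1.70; 2.42 without the library labelled WT skin 2, and 0.20 against that library alone). Loricrin (Lor), the main envelope protein, was at 971, 21023 and 1422 RPKM in the WT skins and at 7986, 7991 and 5471 RPKM in Dlx3 KO skin, highest in the library labelled WT skin 2. Lce6a, a late envelope protein, was at 9.85, 7.11 and 6.13 RPKM in the WT skins and at 47.0, 60.3 and 29.7 RPKM in Dlx3 KO skin (log2 fold change 2.46 ± 0.93, SE, adjusted p = 0.470). Casp14, a protease that breaks down filaggrin, was at 25.5, 113 and 35.9 RPKM in the WT skins and at 234, 246 and 259 RPKM in Dlx3 KO skin. Csta1, a cysteine protease inhibitor built into the envelope, had a log2 fold change of 1.88. These 3 genes did not overlap, unlike Lce3d, for which the library labelled WT skin 2 (18.5 RPKM) lay above Dlx3 KO skin 1 (8.98 RPKM).

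Small proline-rich proteins, which link other proteins of the envelope and are strongly made in stressed epidermis, had the highest median log2 fold change of the epidermal lists. All 16 were higher in Dlx3 KO skin and 12 did not overlap (median log2 fold change 2.88). The median of the family was 3.10, 5.67 and 0.659 RPKM in the WT skins and 32.5, 40.0 and 29.3 RPKM in Dlx3 KO skin, so that the library labelled WT skin 2 lay with the other WT skins here. Against that library alone the median difference was 1.65. Without it, 6 of the 16 passed as higher (limma adjusted p under 0.05, 0.443% of all tested genes). The 4 members of the family with the smallest p, 2e, 2f, 2g and 2i, belong to the Sprr2 genes, which lie in a row on mouse chromosome 3. Promoters of 4 Sprr2 genes are shown because these members were higher together, to show how far their windows are alike. They are chr3:92338920-92339139 for Sprr2d, chr3:92351923-92352142 for Sprr2e, chr3:92364967-92365186 for Sprr2f and chr3:92407771-92407990 for Sprr2i, all on the plus strand (RefSeq, GRCm38.p6, 220 bases before the start). Capitals mark TGANTCA, the AP-1 type sequence, CAGGAA, an ETS type core, and TATAAA, searched on both strands.
Sprr2d: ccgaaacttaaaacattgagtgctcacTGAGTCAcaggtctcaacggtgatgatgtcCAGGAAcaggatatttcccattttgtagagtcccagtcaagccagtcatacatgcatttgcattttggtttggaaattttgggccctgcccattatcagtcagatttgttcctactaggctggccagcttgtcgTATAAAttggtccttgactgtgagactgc
Sprr2e: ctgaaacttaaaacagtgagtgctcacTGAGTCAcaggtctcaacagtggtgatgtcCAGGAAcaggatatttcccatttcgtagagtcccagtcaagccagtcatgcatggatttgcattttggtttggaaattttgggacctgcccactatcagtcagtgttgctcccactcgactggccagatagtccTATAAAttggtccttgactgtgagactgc
Sprr2f: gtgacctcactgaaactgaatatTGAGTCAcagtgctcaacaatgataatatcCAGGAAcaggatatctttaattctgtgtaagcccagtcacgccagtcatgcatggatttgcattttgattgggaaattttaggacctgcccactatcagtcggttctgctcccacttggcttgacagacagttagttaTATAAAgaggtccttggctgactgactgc
Sprr2i: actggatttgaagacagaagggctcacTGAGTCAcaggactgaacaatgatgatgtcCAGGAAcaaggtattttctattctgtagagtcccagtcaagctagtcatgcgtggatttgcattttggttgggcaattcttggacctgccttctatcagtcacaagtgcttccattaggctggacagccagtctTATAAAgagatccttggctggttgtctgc
In Sprr2d, Sprr2e and Sprr2i TGAGTCA begins 193, CAGGAA 163 and TATAAA 29 bases before the start, and in Sprr2f they begin 197, 167 and 29 bases before it. Without gaps, 91.8% of positions were identical between Sprr2d and Sprr2e, 75.9% between Sprr2d and Sprr2i and 76.4% between Sprr2e and Sprr2i. Sprr2f had 35.0% to 36.4% of positions in common with these 3. The windows were not aligned, and TGAGTCA and CAGGAA begin further from the start in Sprr2f. A comparison by position understates likeness between windows that are shifted in this way. Across the family, TGANTCA was in 9 of 14 promoters (64.3%, all tested genes 4.51%), CAGGAA in 10 of 14 (71.4%, all 20.8%) and TAATTG in 0 of 14. Bases A and T made up 56.1% of these windows.

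Sprr2d was at 24.0, 64.1 and 3.03 RPKM in the WT skins and at 386, 471 and 422 RPKM in Dlx3 KO skin (log2 fold change 4.58 ± 1.02, SE, limma adjusted p = 0.256). Sprr2i was at 3.89, 11.1 and 0.781 RPKM in the WT skins and at 40.6, 62.8 and 58.4 RPKM in Dlx3 KO skin (log2 fold change 3.73). In both, WT skin 3 was lowest, and every Dlx3 KO skin was above the highest WT library, the one labelled WT skin 2. Sprr2b (4.38) and Sprr2g (3.98) followed this order, and Sprr1b (3.42), expressed in stressed epidermis, came closest to overlap, with 246 RPKM in the library labelled WT skin 2 and 267 RPKM in Dlx3 KO skin 1. The member that differed least was Sprr1a, at 654, 267 and 702 RPKM in the WT skins and at 550, 661 and 432 RPKM in Dlx3 KO skin. Sprr2a1 and Sprr2a2 hold the same value in every skin library, so the deposited values do not separate these copies.

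Enzymes and transporters of barrier lipids were higher in 37 of 40 members, and 25 did not overlap (median log2 fold change 1.20, and 0.53 against the library labelled WT skin 2 alone). Degs1, which adds the double bond that turns dihydroceramide into ceramide, was at 31.4, 38.7 and 26.9 RPKM in the WT skins and at 111, 107 and 85.1 RPKM in Dlx3 KO skin (log2 fold change 1.64 ± 0.28, SE, adjusted p = 0.201). The WT skins lay between 26.9 and 38.7 RPKM, and Degs1 rose without the library labelled WT skin 2 (adjusted p = 0.0150). Cyp4f39, which hydroxylates the very long fatty acids of acylceramides, was at 8.63, 16.0 and 13.9 RPKM against 36.9, 40.1 and 36.4 RPKM. Elovl7, a fatty acid elongase, had a log2 fold change of 1.39. Of the lipoxygenase pathway that prepares these lipids for the envelope, Alox12b and Aloxe3 did not overlap either (2.27 and 1.55). Nipal4, a membrane protein of the same pathway, overlapped through the library labelled WT skin 2 (25.0 RPKM, and 24.6 RPKM in Dlx3 KO skin 3).

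Cholesterol synthesis genes were higher in 19 of 20 members and 13 did not overlap. Their median log2 fold change was 0.76, and 0.21 against the library labelled WT skin 2 alone. Sc5d, an enzyme near the end of the pathway, was at 6.41, 7.39 and 8.95 RPKM in the WT skins and at 13.3, 16.6 and 16.4 RPKM in Dlx3 KO skin (log2 fold change 0.98 ± 0.25, SE, adjusted p = 0.256). Mvd (log2 fold change 1.11) and Sqle (1.10), 2 earlier enzymes, were higher as well without overlap. Sebaceous gland genes were higher in 14 of 17 tested of 19 members, with 8 higher and 1 lower without overlap. Their median was 0.63, and 0.20 against the library labelled WT skin 2 alone. The wax-forming Far2 (1.69) and Awat2 (0.89) were higher, and the desaturase Fads2 lower, at 7.98, 6.83 and 17.9 RPKM in the WT skins and at 1.09, 4.99 and 6.70 RPKM in Dlx3 KO skin.

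Proteases that release the outermost cells, with their inhibitors, were higher in 32 of 35 tested of 37 members, and 20 higher and 1 lower did not overlap (median log2 fold change 1.27). Serpinb6c was at 1.90, 4.54 and 1.33 RPKM in the WT skins and at 7.85, 17.6 and 17.9 RPKM in Dlx3 KO skin, and Serpinb1a at 6.204, 6.62 and 6.35 RPKM against 10.4, 13.5 and 14.9 RPKM. Both are inhibitors of serine proteases, and neither overlapped. The kallikreins Klk9 and Klk13, proteases of the upper epidermis, rose without the library labelled WT skin 2 (adjusted p = 0.0291 and 0.0102). In that library Klk9 was at 111 RPKM, between the 13.1 and 6.44 RPKM of the other WT skins and the 176 to 238 RPKM of the Dlx3 KO skins. The member that was lower without overlap was St14, a membrane protease that activates others, at 37.6 to 59.0 RPKM in the WT skins and at 27.8 to 36.6 RPKM in Dlx3 KO skin.

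Transcription factors of epidermal differentiation were higher in 24 of 30 members and 12 did not overlap (median log2 fold change 0.51, and 0.50 against the library labelled WT skin 2 alone). Ehf, an ETS factor of epithelia, was at 3.05, 9.38 and 2.57 RPKM in the WT skins and at 22.4, 22.1 and 18.3 RPKM in Dlx3 KO skin (log2 fold change 2.16 ± 0.39, SE, adjusted p = 0.221). Klf4, needed to form the barrier, was at 59.5, 55.5 and 92.0 RPKM in the WT skins and at 303, 192 and 178 RPKM in Dlx3 KO skin (log2 fold change 1.69). Elf3, another ETS factor, had a log2 fold change of 1.08. None of the 3 overlapped, and Ehf rose without the library labelled WT skin 2 (adjusted p = 0.000351).

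**Figure D4:**
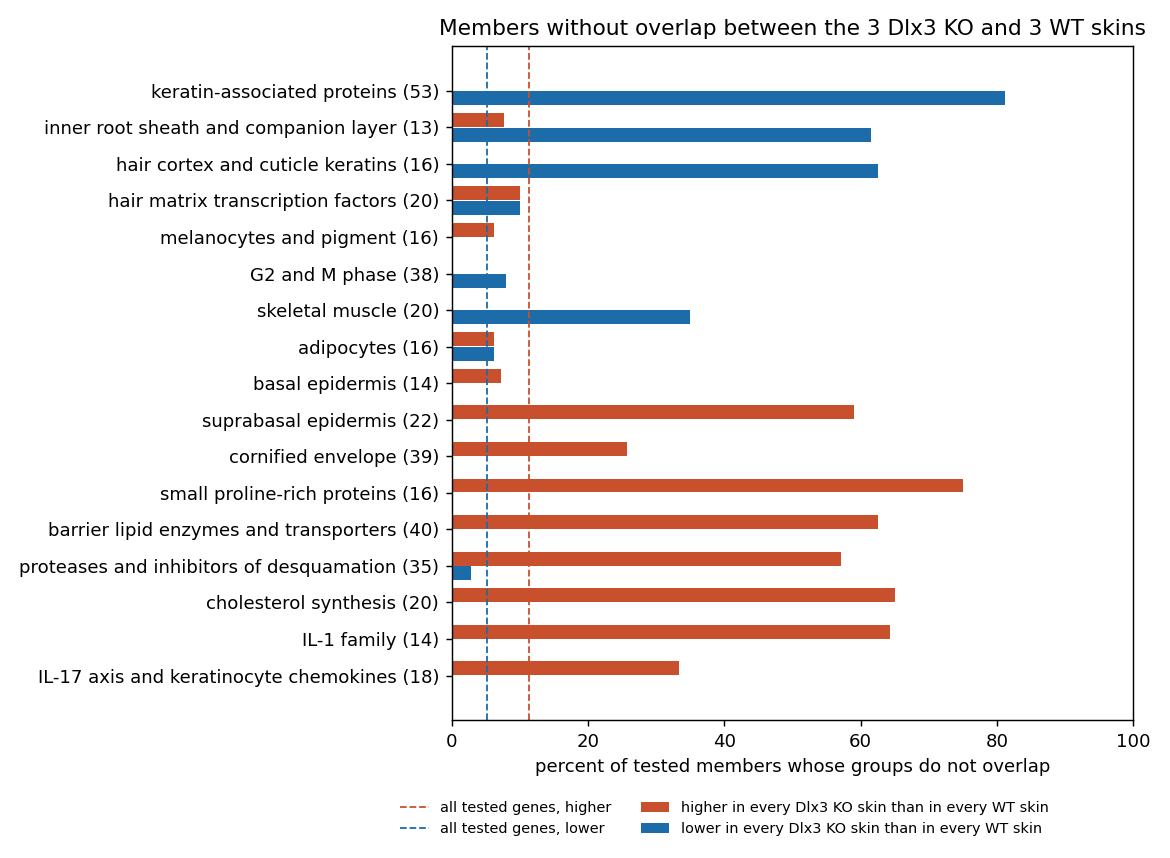
Percent of the tested members of 17 gene lists (x axis) whose 3 Dlx3 KO skins all lie above (red bars) or below (blue bars) all 3 WT skins; dashed lines give the same percent over all tested genes (11.3 higher, 5.1 lower). Keratin-associated proteins (43 of 53 lower), small proline-rich proteins (12 of 16 higher) and barrier lipid genes (25 of 40 higher) have long bars, and basal epidermis (1 of 14 higher) a short bar.

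Genes of wounded or stressed epidermis were higher in 25 of 30 tested of 33 members, and 12 higher and 2 lower did not overlap. Their median log2 fold change was 0.82, and 0.37 against the library labelled WT skin 2 alone. S100a9, a calcium-binding protein of stressed keratinocytes and of neutrophils, was at 69.3, 51.0 and 5.50 RPKM in the WT skins and at 386, 418 and 736 RPKM in Dlx3 KO skin (log2 fold change 4.14 ± 0.94, SE, adjusted p = 0.256). Its partner S100a8 was at 135, 136 and 17.0 RPKM against 363, 506 and 909 RPKM. In both, WT skin 3 was far below the other WT skins and no Dlx3 KO skin reached down to them. The protease inhibitor Stfa1 (4.19) and its relative Cstdc5 (4.10), the antimicrobial Defb6 (3.26) and iron-binding Lcn2 (2.45) were higher without overlap. Cstdc5 was at 277, 313 and 35.7 RPKM in the WT skins and at 1370, 3497 and 3313 RPKM in Dlx3 KO skin. S100a7a, another S100 protein of the list, had the other direction, at 12.4, 0.513 and 17.1 RPKM in the WT skins and at 0.307, 0.728 and 0.758 RPKM in Dlx3 KO skin (log2 fold change -2.51). It overlapped through the library labelled WT skin 2 and fell without it (limma adjusted p = 0.0353). Of 13 tested of 14 S100 genes 6 were higher and 7 lower, and 3 higher and 2 lower did not overlap (median -0.02). In the wound list the 2 members that were lower without overlap were Ptgs2, the inducible prostaglandin synthase, at 0.415 to 0.708 RPKM against 0.130 to 0.2003 RPKM, and the matrix protease Mmp9, at 3.34 to 4.47 RPKM against 1.56 to 3.15 RPKM.

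S100a8, S100a9 and Stfa1 are also made by neutrophils, so the neutrophil markers are given beside them. Of 14 neutrophil markers 6 passed the minimum, with 5 higher, 1 lower and 3 higher without overlap (median log2 fold change 0.46). The lower marker was Ltf, lactoferrin, at 1.27, 6.35 and 0.193 RPKM in the WT skins and at 0.0296, 0.265 and 0.358 RPKM in Dlx3 KO skin, with overlap (log2 fold change -1.53). Ly6g, a defining marker, was listed at 0 in all 3 WT skins and at 0.0305 to 0.0529 RPKM in the Dlx3 KO skins, and did not pass the minimum. The receptor Cxcr2 was at 11.7, 9.70 and 4.38 RPKM in the WT skins and at 13.4, 12.99 and 12.6 RPKM in Dlx3 KO skin. The summed RPKM of the 6 markers were 28.3 to 220 in WT skin and 767 to 1660 in Dlx3 KO skin, a sum made up largely of S100a8 and S100a9. The part of neutrophils in these values was not tested.

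The IL-1 family, cytokines that keratinocytes release as alarm signals, was higher in 13 of 14 tested of 19 members, and 9 did not overlap (median log2 fold change 1.03, and 1.13 against the library labelled WT skin 2 alone). The 5 not tested are Il18rap, below the minimum, and 4 newer symbols of members counted under their older ones. Il1f8, the interleukin 36 beta gene, was at 4.03, 13.2 and 2.19 RPKM in the WT skins and at 53.7, 52.3 and 58.4 RPKM in Dlx3 KO skin (log2 fold change 3.33 ± 0.83, SE, adjusted p = 0.256). Il1f9, for interleukin 36 gamma, was at 14.8, 37.7 and 9.89 RPKM in the WT skins and at 88.7, 88.2 and 91.3 RPKM in Dlx3 KO skin, and rose without the library labelled WT skin 2 (adjusted p = 0.0272). For both, the 3 Dlx3 KO skins were close together and the library labelled WT skin 2 was the highest WT skin. Il18, which cells hold ready as a precursor, was at 9.11, 11.9 and 6.97 RPKM against 35.5, 43.3 and 30.5 RPKM, and Il1a had a log2 fold change of 1.72. The receptor Il1r1 was the member that was lower, at 5.48 to 8.90 RPKM in the WT skins and at 5.35 to 6.70 RPKM in Dlx3 KO skin, with overlap.

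Genes of the IL-17 axis and keratinocyte chemokines were higher in 15 of 18 tested of 25 members and 6 did not overlap. Their median log2 fold change was 0.77, and 0.40 against the library labelled WT skin 2 alone. The 4 with the smallest p were higher without overlap. They were Traf3ip2 (1.22), the adaptor of the IL-17 receptor, Nfkbiz (1.24), a nuclear regulator that IL-17 and IL-36 induce, the RNase Zc3h12a (1.88) and Ccl20 (1.67), a chemokine for T cells. Traf3ip2 was at 3.35, 3.21 and 5.68 RPKM in the WT skins and at 12.1, 8.61 and 9.20 RPKM in Dlx3 KO skin. The cytokine gene Il17a did not pass the minimum. T cell receptor genes Cd3g (1.11, 1.16 and 1.26 against 3.57, 6.73 and 2.22 RPKM) and Cd3e (0.566, 0.522 and 0.746 against 1.36, 2.52 and 1.06 RPKM) were higher without overlap, in a lymphocyte list with 8 of 11 tested of 21 members higher and 3 not overlapping (median log2 fold change 0.71). Against the library labelled WT skin 2 alone the median of the lymphocyte list was 0.09, and that of all tested genes 0.07. Macrophage and dendritic cell genes were higher in 17 of 20 tested of 23 members (median 0.21, and 0.10 against the library labelled WT skin 2 alone). Of the 20, 3 were higher without overlap, against 11.3% of all tested genes. Among them was the lysosomal Cd68 (1.30), while Csf1r and C1qa overlapped at 11.6 to 17.5 and 60.9 to 89.6 RPKM over all skins.

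The genes with the smallest p were Fgfbp1, Rbp2 and Tmigd1 in the higher direction. Fgfbp1, a secreted protein that frees fibroblast growth factors from the matrix, was at 24.4, 42.6 and 21.7 RPKM in the WT skins and at 109, 139 and 119 RPKM in Dlx3 KO skin (log2 fold change 2.09 ± 0.26, SE, limma adjusted p = 0.0742). In the authors' deposited table its p-value is 3.61e-05 and its q-value 0.107, with a ratio of 4.30. It rose without the library labelled WT skin 2 (adjusted p = 0.000257) and with weighted libraries. In the list of Fgf ligands, receptors and binding proteins, which holds Fgfbp1, 5 of 13 tested of 15 members were higher and 8 lower, and 2 higher did not overlap, Fgfbp1 and the receptor Fgfr4 (median log2 fold change of the list -0.16). Rbp2, a carrier of retinol, was at 24.0, 22.7 and 10.4 RPKM in the WT skins and at 72.7, 92.3 and 105 RPKM in Dlx3 KO skin (log2 fold change 2.28 ± 0.36, SE, adjusted p = 0.201). Tmigd1, an adhesion protein, was at 1.21, 4.05 and 0.688 RPKM against 10.3, 12.2 and 11.1 RPKM. In each of these 3 genes the 3 Dlx3 KO skins lay close together and well above the WT skins, the library labelled WT skin 2 included.

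Retinoid enzymes and carriers were higher in 13 of 18 tested of 19 members with 4 not overlapping (median log2 fold change 0.40). Besides Rbp2 these include Dhrs9 (1.16) and Rdh12 (1.48), enzymes that interconvert retinol and retinal. Of the dual oxidase system, which makes hydrogen peroxide at the cell surface, Duoxa1, the partner needed to mature the oxidase, was at 4.52, 7.48 and 4.42 RPKM in the WT skins and at 17.0, 15.4 and 19.9 RPKM in Dlx3 KO skin. Duox1, the oxidase itself, was at 1.33, 3.54 and 1.65 RPKM against 5.45, 4.98 and 7.41 RPKM. Both were higher without overlap (log2 fold changes 1.62 and 1.34) and rose without the library labelled WT skin 2, in a list with 5 of 6 tested of 9 members higher (median 0.44).

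ERBB receptors bind growth factors of the EGF and neuregulin kind. Of 15 tested of 16 genes of these receptors, their ligands and 2 feedback inhibitors 12 were higher, and 4 higher and 1 lower did not overlap (median log2 fold change 0.23). Ereg, epiregulin, was at 2.40, 1.75 and 2.30 RPKM in the WT skins and at 5.95, 8.04 and 15.1 RPKM in Dlx3 KO skin (log2 fold change 1.85 ± 0.40, SE, adjusted p = 0.256). Epgn (1.41), Hbegf (1.12) and Nrg4 (1.06) were the others that were higher without overlap, while amphiregulin, Areg, was at 7.37, 3.06 and 5.25 RPKM against 3.64, 6.34 and 6.33 RPKM. The member lower without overlap was the ligand Nrg2, at 1.63 to 3.19 RPKM in the WT skins and at 0.895 to 1.42 RPKM in Dlx3 KO skin. The receptors Egfr, Erbb2 and Erbb3 overlapped, and Erbb4 did not pass the minimum. Immediate early genes, which growth signals switch on, were higher in 19 of 22 members with 6 not overlapping (median 0.44), among them Ier3 (1.20). Fosb was at 18.9 RPKM in Dlx3 KO skin 1 but at 1.12 and 0.699 RPKM in the others, against 0.257 to 0.599 RPKM in WT skin.

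DMBA is activated and cleared by enzymes under the aryl hydrocarbon receptor, so these genes were examined. Ahr, the receptor, was at 3.23, 2.95 and 3.46 RPKM in the WT skins and at 10.7, 7.23 and 5.39 RPKM in Dlx3 KO skin (log2 fold change 1.11 ± 0.38, SE, adjusted p = 0.404). Cyp1a1, its target and an enzyme that oxidises DMBA, was at 0.520, 1.33 and 0.738 RPKM against 2.77, 3.48 and 2.71 RPKM. Akr1b8 (0.96), an aldehyde reductase, and the glutathione transferase Gsto1 (0.88) were higher too, and none of the 4 overlapped. The whole list had 17 of 24 tested of 26 members higher, and 7 higher and 2 lower without overlap (median log2 fold change 0.53). The 2 lower were the glutathione transferases Gstp1 (-0.30) and Gstp2 (-0.58).

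Cell division genes were slightly lower. Of 38 genes of the G2 and M phases 37 were lower (median log2 fold change -0.46), and against the library labelled WT skin 2 alone the median was 0.05. Of the 38, 3 were lower without overlap, against 5.1% of all tested genes. Of 28 genes of the G1 and S phases 25 were lower, and 3 lower and 1 higher did not overlap (median -0.30). Pbk, a mitotic kinase, was at 7.36, 7.76 and 12.6 RPKM in the WT skins and at 2.84, 6.23 and 5.32 RPKM in Dlx3 KO skin, and the phosphatase Cdc25c at 3.53, 3.96 and 4.36 against 1.11, 2.92 and 1.85 RPKM. WT skin 3 and Dlx3 KO skin 1 were the highest and lowest skins for the median of the G2 and M list, at 8.94 and 2.89 RPKM, as they were for the hair matrix factors at 23.6 and 4.66 RPKM.

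Among genes outside the hair that were lower, the smallest p belonged to Apoc4, Dupd1 and Ffar2. Apoc4, an apolipoprotein, was at 1.54, 1.30 and 1.93 RPKM in the WT skins and at 0.464, 0.272 and 0.108 RPKM in Dlx3 KO skin (log2 fold change -1.44 ± 0.24, SE, adjusted p = 0.201). Ffar2, a receptor for short fatty acids, was at 12.4, 11.3 and 7.37 RPKM against 2.102, 3.33 and 3.37 RPKM (log2 fold change -1.65). Krt18, a keratin of simple epithelium, was at 3.84, 4.86 and 3.21 RPKM in the WT skins and at 0.255, 0.193 and 0.682 RPKM in Dlx3 KO skin (log2 fold change -2.38 ± 0.85, SE, adjusted p = 0.432). For Apoc4, Ffar2 and Krt18 the library labelled WT skin 2 lay with the other WT skins, and the Dlx3 KO skins lay below them. Dupd1 was at 5.47, 2.15 and 5.36 RPKM in the WT skins and at 0.0589, 0.357 and 1.12 RPKM in Dlx3 KO skin. Its log2 fold change was -2.30, and the library labelled WT skin 2 lay between the other WT skins and the Dlx3 KO skins.

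Genes of skeletal muscle, fat and blood were mostly lower. Muscle genes were lower in 16 of 20 members and 7 did not overlap (median log2 fold change -0.88). Pvalb, a calcium buffer of fast muscle, was at 2154, 1596 and 1650 RPKM in the WT skins and at 208, 344 and 608 RPKM in Dlx3 KO skin, while the actin Acta1 was at 1178 to 3713 RPKM and 1178 to 3470 RPKM. The summed RPKM of the muscle list were 16041 to 25148 in WT skin and 7501 to 15956 in Dlx3 KO skin. Adipocyte genes were lower in 13 of 16 members, and 1 lower and 1 higher did not overlap (median -0.64). All 7 blood genes were lower, and 2 did not overlap (median -2.36), the globin copies Hbb-bt and Hbb-b2, which hold the same values. Haemoglobin was nearly missing from Dlx3 KO skin 1, where the blood list summed to 4.77 RPKM against 144 and 335 RPKM in the other Dlx3 KO skins and 281 to 531 RPKM in WT skin. Fibroblast and collagen genes were divided, with 8 of 17 higher and 9 lower (median -0.17), and Postn, a matrix protein of wounds, was at 43.3, 42.5 and 52.0 RPKM against 84.2, 80.5 and 127 RPKM. The part of muscle, fat and blood content in the gene differences above was not tested.

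**Figure D5:**
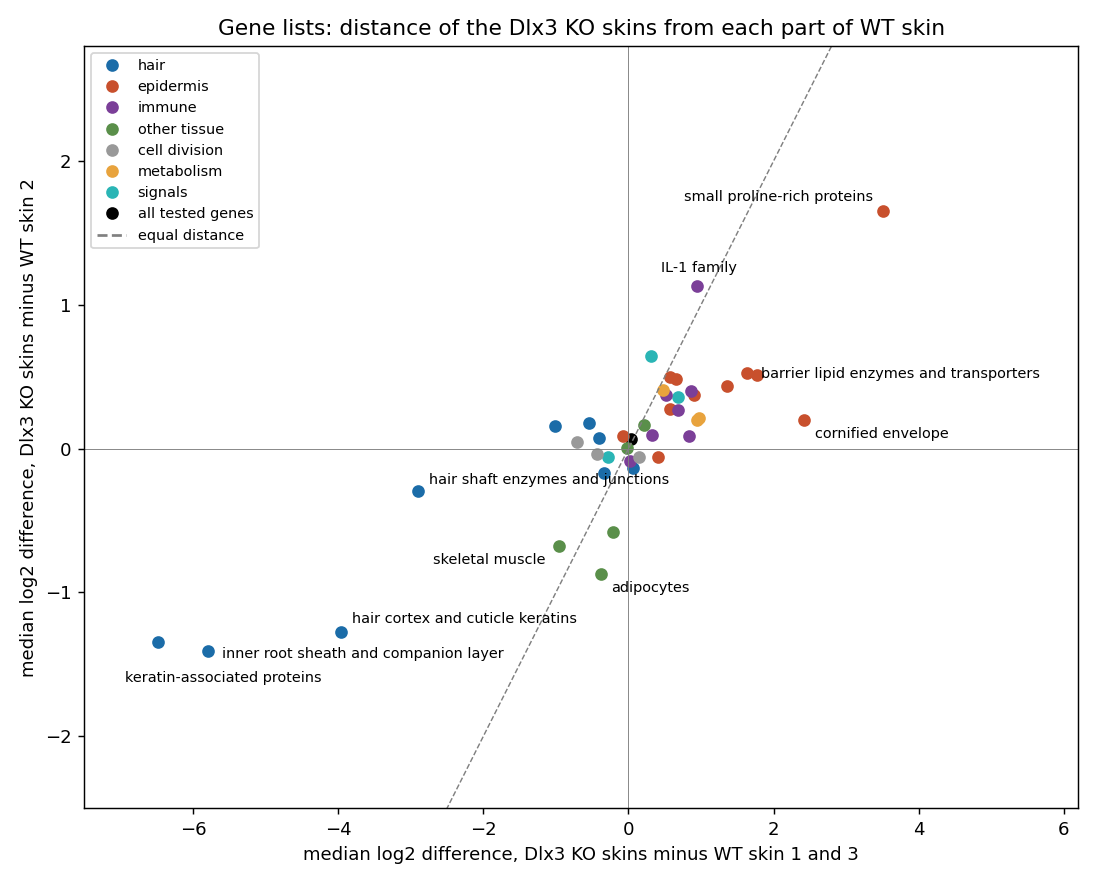
Each point is the median of a gene list, with its median log2 difference between the Dlx3 KO skins and WT skin 1 and 3 on the x axis and between the Dlx3 KO skins and the library labelled WT skin 2 alone on the y axis; colours give the kind of list and the dashed line equal differences. Keratin-associated proteins lie far to the left (-6.49 on x, -1.35 on y). The inner root sheath list (-5.80 on x) and the cortex and cuticle keratins (-3.96 on x) lie to the left as well. Other hair lists lie nearer the middle, such as hair matrix factors (-0.55 on x) and stem cell and resting follicle genes (0.07 on x). Cornified envelope genes lie at 2.42 and 0.20, and the IL-1 family at 0.94 and 1.13, next to the line.

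Set against the library labelled WT skin 2 alone, the Dlx3 KO skins kept the sign of the median for the lists of keratin-associated proteins (-1.35), hair cortex and cuticle keratins (-1.28), inner root sheath (-1.41), small proline-rich proteins (1.65), barrier lipids (0.53), proteases (0.51) and the IL-1 family (1.13), while all tested genes had 0.07. The medians of basal epidermis (-0.06), pigment cells (0.16), hair matrix factors (0.18) and G2 and M genes (0.05) had the other sign than with all WT skins. So did those of the dermal papilla (0.07), interferon response (-0.09), CDK inhibitors and p53 targets (-0.06), nerve and Schwann cells (0.0027) and S100 proteins (0.09). The difference between these lists was not tested.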

How the data were processed

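Libraries of whole-skin RNA without ribosomal RNA were read from 1 end, per the labels' protocols. Reads were handled with bcl2fastq 2.20.0.422, TopHat2 2.1.1, Bowtie and Partek and the build mm10, per the submitters' processing notes. The RPKM values per gene were made by the authors in Partek and are not log transformed, per the file headers. The deposited sample sheet gives the count of alignments and the run of each library. The group means in the authors' deposited table are on the log2 scale, and its p-values, q-values and ratios (fold changes) come from an analysis of variance by the authors, per the file headers, whose terms are not stated. RPKM values close to 0 but not 0 occur in the deposited table, so reads of similar genes may have been shared out between them.

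Of 24974 genes, 1143 were at 0 in all 11 libraries. The 14233 with a mean of at least 0.5 RPKM were tested on log2(RPKM + 0.5), which understates the fold change of low genes. limma 3.58.1 in R 4.3.3 (trend and robust) fitted WT skin, Dlx3 KO skin and tumors together, two-sided, with Benjamini-Hochberg adjustment over all tested genes and a threshold of 0.05. RPKM hold no counts per gene, so the spread between libraries is the measure of precision. The libraries came from GEO's labels, which give 3 WT skins and 3 Dlx3 KO skins; the same-numbered skins were not treated as pairs. Members, gene lists and the naming rule were set with earlier results of these data known. The rule took Dlx3, the 10 genes per direction with the smallest p, the 12 with the widest gap between groups, in each described list up to 4 genes of lowest p, and the 10 with the largest change among genes called without WT skin 2 whose groups did not overlap. Members named beyond it were chosen after their values were seen. Predicted, clone-named, small RNA, ribosomal, immune receptor and sex chromosome genes were left out of the rule's rankings. Alternatives were other pseudocounts (0.1, 1), filters and scalings, limma settings, library weights, run or Xist as a term, a replicate block, subsets and leaving out each library; leaving out WT skin 2 with run as a term was added after seeing the data. Promoters are from RefSeq (GRCm38.p6). Python 3.11.15 with pandas 2.3.3, numpy 2.4.6 and matplotlib 3.10.9 made tables and figures.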

Additional observations from a re-analysis of the deposited data

How the results depend on the processing

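The count of called genes was 0 in the fit reported and stayed at 0 with other pseudocounts, filters and scalings, without trend and robust, with the 2 skin groups alone, with run or Xist as a term, in the first run alone and without the libraries highest in Rn45s. It was 2 with library weights (Fgfbp1 and Tmigd1, both higher) and 4 among the libraries high in Xist, where the library labelled WT skin 2 is the lone WT skin, is assumed to vary like the others, and has the 4 called genes (H2-Q8, Mir762, Mir7672 and Mir8112) almost to itself. Leaving out single libraries gave 0 to 229, and the 229 came without the library labelled WT skin 2. With run as a further term, an alternative chosen after seeing the data, that count was 206, of which 199 were among the 229. The log2 fold change of Dlx3 ran from -3.32 to -1.56 over the fits that each left out 1 library, passed without the library labelled WT skin 2 (-3.32, and -3.46 with run as a term), and was -0.21 among the libraries high in Xist. The correlations of the deviations of same-numbered skins from their group means were -0.230, -0.132 and 0.168. Deviations within a group of 3 sum to 0, so these values depend on each other. They cannot decide whether the replicate numbers pair the skins. With the replicate block 0 genes were called, 1312 had an unadjusted p under 0.05 against 1229 without it, and the log2 fold change of Dlx3 was -2.28 (adjusted p = 0.414). Of 3713 values of 169 named genes over 22 alternatives, 11 in 9 genes changed sign. Among the libraries high in Xist these were Fgf18 (0.32), Mc1r (0.11), Krt14 (-0.23), Krt5 (-0.15), Sod2 (0.41), Itgax (-0.096) and S100a7a (0.087). Leaving out 1 library at a time, Sod2 ran from -0.44 to 0.045 (without WT skin 3) and Duoxa2 from -0.20 (without Dlx3 KO skin 3) to 1.15. Ltf was at 0.012 with run as a term and at 0.89 when the library labelled WT skin 2 was left out as well. The causes of these changes were not tested. Counts per gene were not analysed here, so no interval from depth can be given for low values.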

Other observations

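Rnase2b, a secreted ribonuclease of the type that mouse eosinophils make, was at 7.08, 15.8 and 3.60 RPKM in WT skin 1, the library labelled WT skin 2 and WT skin 3 and at 59.3, 86.4 and 88.6 RPKM in Dlx3 KO skin (log2 fold change 3.28 ± 1.06, SE, limma adjusted p = 0.374). Ear6 was at 0.999, 2.04 and 0.726 RPKM against 6.23, 10.03 and 10.4 RPKM, and Ear1 at 0.0459, 0.151 and 0.0504 RPKM against 2.88, 1.72 and 2.71 RPKM. These relatives were chosen after their values were seen. Of 2 further relatives, Ear2 was higher without overlap (log2 fold change 0.79) and Rnase2a overlapped (1.97). The members of this family are close copies, so the values of single members are uncertain. Cxcl13, a chemokine that draws B cells, was at 4.53, 4.55 and 3.95 RPKM in the WT skins and at 17.3, 18.3 and 23.9 RPKM in Dlx3 KO skin (log2 fold change 2.06 ± 0.89, SE, adjusted p = 0.547). For Rnase2b, Ear1, Ear6 and Cxcl13 each Dlx3 KO skin was above each WT skin, the library labelled WT skin 2 included. Interferon response genes showed no such shift, with 10 of 20 higher, 10 lower and 0 without overlap (median log2 fold change 0.01, all tested genes 0.06). Mast cell genes were higher in 6 of 9 tested of 10 members with 3 not overlapping (median 0.57), genes of the dermal papilla lower in 11 of 13 tested of 16 with 1 not overlapping (median -0.22), and CDK inhibitors and p53 targets higher in 13 of 17 tested of 18 with 2 not overlapping (median 0.16). Against the library labelled WT skin 2 alone the medians of the last 2 lists had the other sign (0.07 and -0.06). Over all tested genes, 11.3% were higher and 5.1% lower without overlap.

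Of genes at 5 RPKM or more in 1 library and at 0.2 RPKM or less in the 10 others, the library labelled WT skin 2 held 4 and every other library 0. They were H2-Q8 (9.80 RPKM), Mir762 (15.7 RPKM), Mir7672 (6.73 RPKM) and Mir8112 (8.71 RPKM).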
